A study of Mus musculus with 2 samples.

Results

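The cells described here were the microglia with the highest share of their counts in 8 immediate early genes, *Fos*, *Fosb*, *Jun*, *Junb*, *Egr1*, *Ier2*, *Dusp1* and *Atf3*. All cells with at least 2000 counts were ranked together on this share, and the members were the highest 10%. They were 4025 of 40246 ranked cells, with 2380 members among 17069 ranked cells of the VEH library and 1645 among 23177 of the LEM library. The lowest 10%, also 4025 cells, and the 32196 cells between served as references. The whole table held 42766 cells.

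Microglia were sorted as live CD45lo CD11b+ cells from the cortex and hippocampus of PSAPP mice (APPswe/PS1.delta.E9), which carry mutant human transgenes for amyloid precursor protein and presenilin and deposit amyloid plaques. Both groups carried these transgenes. From 9 months of age, mice received vehicle (VEH) or the dual orexin receptor antagonist lemborexant at 30 mg/kg/day (LEM) by daily oral gavage for 30 days. Cells of 5 mice were pooled into 1 library per treatment, so that treatment, mice and the handling of a library cannot be told apart, and no test between treatments was possible.

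Immediate early genes are transcribed within minutes of a stimulus, without new protein synthesis, when calcium, kinase or cytokine signals reach factors already bound at their promoters. *Fos*, *Fosb*, *Jun* and *Junb* encode subunits of the AP-1 transcription factor, *Egr1* and *Atf3* encode further transcription factors, *Dusp1* encodes a phosphatase that shuts down MAP kinases, and *Ier2* encodes a nuclear protein of the same early wave. In microglia these genes respond to injury, to neuronal signals and to the dissociation and sorting of the cells. Disease-associated microglia (DAM) gather at plaques and are known for high *Apoe*, *Cst7*, *Lpl* and *Spp1* and low homeostatic genes.

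The members carried microglial identity. Of the microglial markers, *P2ry12* was detected in 99.5% of members in both libraries, against 97.8% of the lowest cells in VEH and 96.2% in LEM. *Cx3cr1* was detected in 99.7 and 99.9% of members and in 98.2 and 96.8% of the lowest cells, and *Tmem119* in 98.4 and 97.6% and in 96.5 and 93.3%. Of 10 T and NK cell markers, 8 were at 0 in the members, as were *Clic6* and *Cldn2* of the choroid plexus epithelium, *Gja1* and *Sox9* of astrocytes and *Cldn5* of endothelium. Levels are given as CPM, the counts of a gene per 1000000 counts of a class. The summed level of the choroid plexus markers was 1.5 CPM in VEH members and 73.4 CPM in LEM members, but 3234 and 8793 CPM in the lowest cells of the same libraries. Cells with at least 5 counts of these markers were 0 and 3 among the members and 23 and 69 among the lowest cells. Astrocyte markers summed to 4.14 and 6.45 CPM in members and to 50.6 and 136 CPM in the lowest cells. The lowest cells also differed in broadly expressed RNAs. *Malat1* was detected in 100% of members and cells between, but in 95.7% (VEH) and 94.1% (LEM) of the lowest cells. The mitochondrial *mt-Co1* was detected in 96.3 and 96.9% of members, 96.4 and 96.8% of the cells between and 80.7 and 82.5% of the lowest cells. The cause was not tested. The lowest 10% were thus a mixed reference, and the medians of the main gene groups are also given against the cells between. The other markers were close in summed level, but these sums were carried by a few genes. *Maf* and *Stab1* had 292 and 119 CPM in VEH members and 287 and 134 CPM in LEM members, and *Csf3r* had 334 and 373 CPM. Scarcer markers varied in their log2 ratio over the lowest cells, *Ms4a7* of macrophages with -4.96 (VEH) and -1.61 (LEM) and, of endothelium, *Flt1* with -3.44 and -1.97, *Itm2a* with -2.56 and -2.22 and *Egfl7* with -2.76 and -1.80, all below 5 CPM in members, while *Pf4* had 2.02 and -0.18 and *Vwf* 1.78 and 0.87. In members of VEH and LEM those of border-associated macrophages summed to 419 and 439 CPM (362 and 388 in the lowest cells), of monocytes and neutrophils to 342 and 383 CPM (315 and 345) and of oligodendrocytes to 109 CPM in both (98.9 and 110.5). Those of endothelium summed to 18.3 and 22.3 CPM (23.1 and 24.1), of neurons to 9.25 and 10.7 CPM (8.37 and 10.7) and of T and NK cells to 0.226 and 0.119 CPM.

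Depth moved with membership. The members had a median of 5336 counts in VEH and 4895 in LEM, the cells between had 6409 and 6351, and the lowest cells had 5671 and 5646. Of the shallowest 10% of cells 18.6% were members, and of the deepest 10% only 2.68%. The lowest class held 17.0% of the shallowest and 9.99% of the deepest cells. Ranking cells within 10 bins of depth kept 78.1% of the members, and ranking after every cell was thinned to 2000 counts kept 76.4%. Cells with both *Xist* and Y-linked counts, which may be doublets, were 2.90 and 4.07% of members, 6.56 and 8.32% of the cells between and 2.63 and 3.75% of the lowest cells.

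The share of counts in the 8 genes, on which the members were selected, formed a continuous distribution with no gap at the cut and a small rise of cells near 0. It was 1.64 to 4.59% in the members, with a median of 1.89%. The median was 0.980% in the cells between and 0.249% in the lowest cells, where 285 cells had no count of any of the 8 genes. The last member had 1.64135% and the first cell outside 1.64122%, and 1844 cells lay within 5% of the cut. Membership is therefore a range of a graded score and not a cell type.

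**Figure D1:**
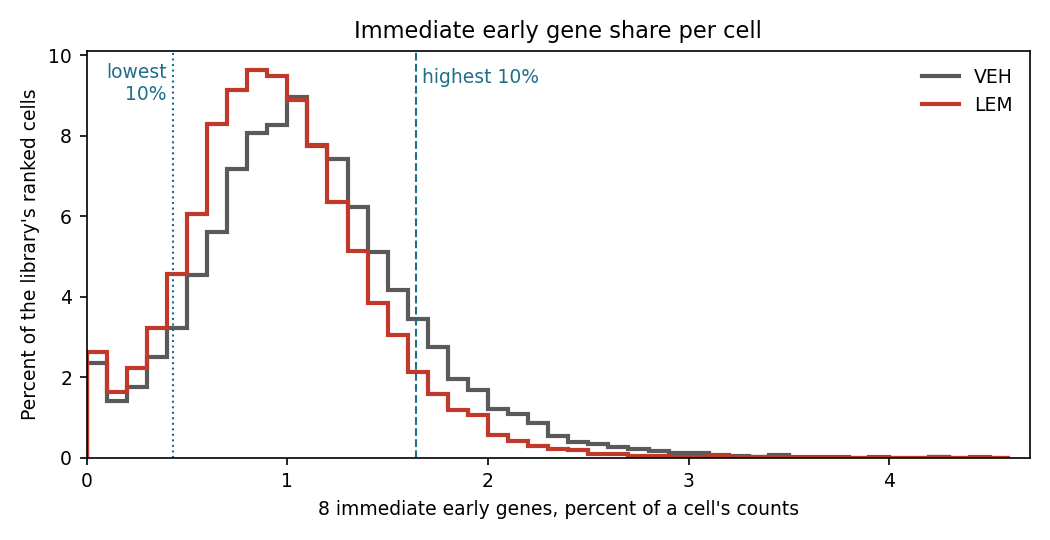
Histogram of the share of each ranked cell's counts in the 8 genes, in percent, for 17069 VEH (grey) and 23177 LEM cells (red), as percent of the library's ranked cells per bin of 0.1 percentage points; the dashed line marks the start of the highest 10% and the dotted line the end of the lowest 10%. The LEM curve lies to the left of the VEH curve, with medians of 0.929% and 1.06%, and neither has a gap at the cut.

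Members were more frequent in the VEH library than in the LEM library. In VEH 13.9% of ranked cells were members (95% Clopper-Pearson interval 13.4 to 14.5), and in LEM 7.10% (6.77 to 7.44). On the log2 scale LEM stood at -0.97 relative to VEH (95% interval -1.06 to -0.89). The intervals here and below cover counting error only. Female and male cells, told apart by *Xist* and Y-linked counts, came from different mice of each pool. Among female cells the shares were 14.4% in VEH and 6.97% in LEM, and among male cells 14.0% and 7.32%. LEM over VEH was -1.05 for female cells (-1.19 to -0.90) and -0.93 for male cells (-1.05 to -0.81), so the direction was the same in both sets of mice. Within a library the sexes lay close together, with a log2 ratio of female over male share of 0.04 (-0.08 to 0.16) in VEH and -0.07 (-0.22 to 0.08) in LEM.

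The gap between the libraries was wider toward the top of the ranking. The cuts below are nested and taken on the score that defines the members, so they are not separate results. Of the highest 1% of cells, 289 were VEH and 113 were LEM, or 1.69% and 0.488% of each library, a log2 ratio of -1.80 (-2.11 to -1.48). For the highest 5, 20 and 50% the log2 ratios were -1.18, -0.71 and -0.33. The lowest 10% went the other way, with 8.91% of VEH cells and 10.8% of LEM cells, or 0.28 on the log2 scale (0.19 to 0.37). The median depth over ranked cells was 6185 counts in VEH and 6178 in LEM, and within the depth bins the log2 ratio for members was -1.07.

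**Figure D2:**
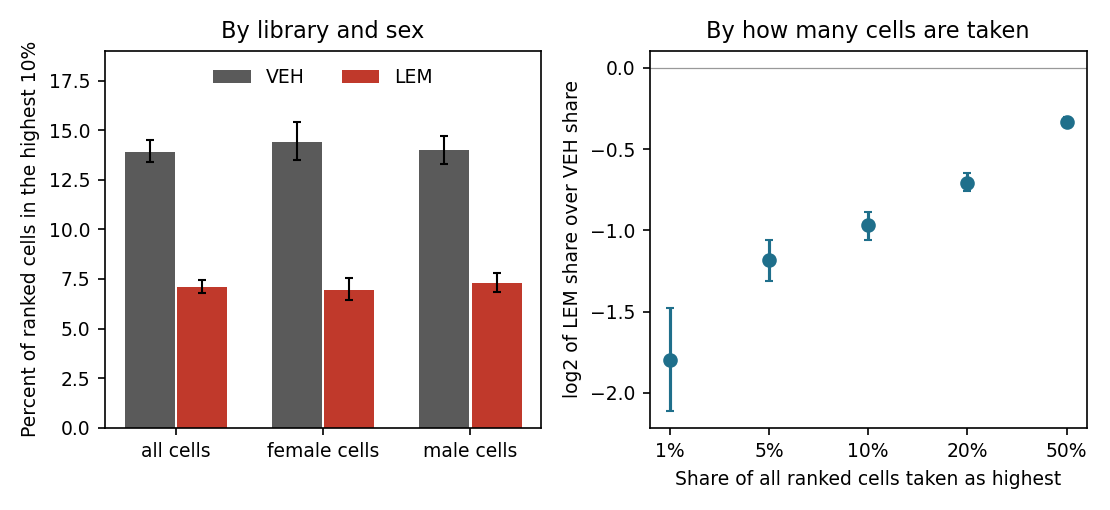
Left, percent of ranked cells in the highest 10% for VEH (grey) and LEM (red), over all cells and over female and male cells, with 95% Clopper-Pearson intervals. Right, log2 of the LEM share over the VEH share when the highest 1, 5, 10, 20 or 50% of all ranked cells are taken, with 95% intervals; the ratio runs from -1.80 at 1% to -0.33 at 50%.

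The values of the 8 genes themselves describe the selection and are no finding. *Fos* (GRCm38 chr12:85473890-85477273, plus strand, 4 exons) stood at 3949 CPM in VEH members, 1515 CPM in the cells between and 177 CPM in the lowest cells. In LEM the same classes had 3699, 1393 and 206 CPM. The log2 ratio of members over the lowest cells was 4.48 in VEH (95% interval 4.41 to 4.55) and 4.17 in LEM (4.12 to 4.22), the largest of the 8 in both libraries. *Jun* (chr4:95049034-95052222, minus strand, 1 exon) had 5666, 3469 and 1054 CPM in VEH and 5365, 3140.2 and 1021 CPM in LEM, with log2 ratios of 2.43 and 2.39. *Junb* (chr8:84974484-84978718, minus strand, 1 exon) had 4336, 2187 and 467 CPM in VEH and 4592, 2232 and 493 CPM in LEM, with log2 ratios of 3.21 and 3.22. *Jun* was detected in 100% of members and still in 83.3 and 83.6% of the lowest cells, while *Fos* was detected in 97.4 and 97.1% of members and in 33.6 and 39.2% of the lowest cells. Thinned to 2000 counts a cell, *Fos* was detected in 95.9 and 94.5% of members and in 19.9 and 23.5% of the lowest cells.

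*Egr1* had 2247 CPM in VEH members and 232 CPM in the lowest cells, and 2161 and 261 CPM in LEM. *Dusp1* (chr17:26505590-26562128, minus strand, 4 exons) had 1473 and 150.3 CPM in VEH and 1334 and 148 CPM in LEM. The *Dusp1* span is that of the whole gene entry, and the transcript start used for its promoter below lies inside it. *Ier2* had 989 and 96.6 CPM in VEH and 1049 and 114 CPM in LEM. These genes and *Fosb* had log2 ratios of 3.05 to 3.48 in either library. *Atf3* (chr1:191170296-191218039, minus strand, 4 exons) had 513 CPM in members and 133 CPM in the lowest cells of VEH, and 424 and 139 CPM in LEM, with the smallest log2 ratios of 1.95 and 1.61.

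**Figure D3:**
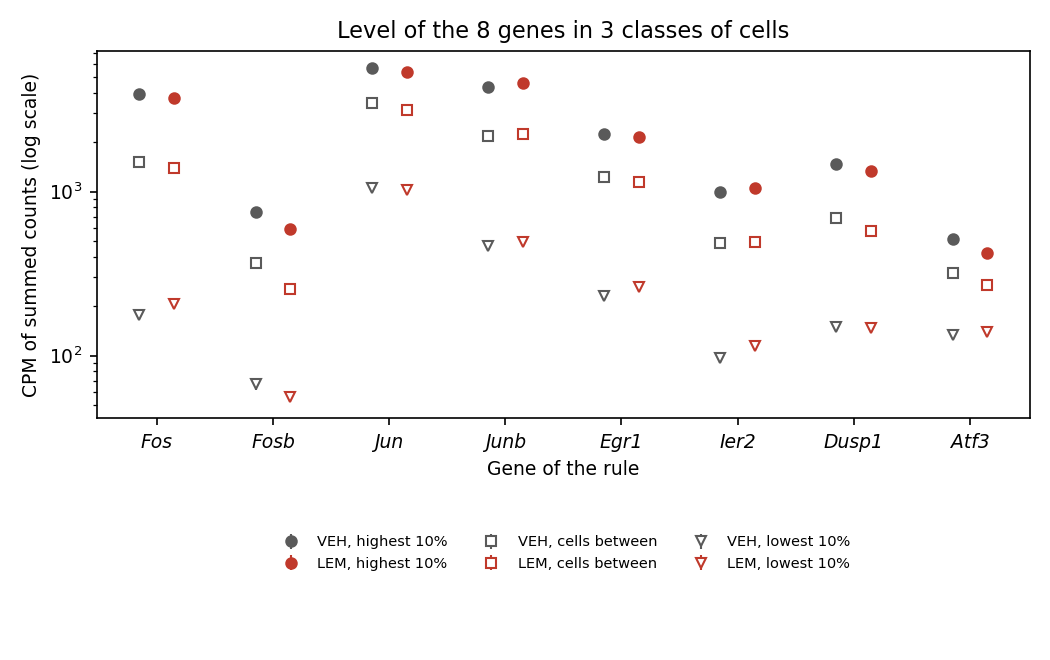
Level of the 8 genes, in CPM of summed counts on a log axis, in the highest 10% (filled circles), the cells between (open squares) and the lowest 10% (triangles) of VEH (grey) and LEM cells (red), with 95% Poisson intervals that are mostly smaller than the symbols. All 8 genes are ordered by class in both libraries, which the selection fixes, and the classes of *Atf3* lie closest together.

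To measure each gene in cells not chosen by it, cells were ranked again on the other 7 genes. *Fos* then stood at 3071 CPM in the highest and 321 CPM in the lowest 10% of VEH cells, a log2 ratio of 3.26 (3.20 to 3.31), and at 2645 and 378 CPM in LEM, a ratio of 2.81 (2.77 to 2.85). *Fosb* kept 2.85 and 2.72, *Dusp1* 2.63 and 2.51, *Ier2* 2.5 and 2.27, *Egr1* 2.43 and 2.04, *Junb* 2.30 and 2.07, and *Jun* 1.71 and 1.58. *Atf3* kept 1.15 (1.08 to 1.23) and 0.85 (0.78 to 0.92). All 8 genes were thus higher, in both libraries, in the cells ranked highest on the other 7, and *Atf3* least so.

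Single members did not carry all 8 genes alike. They had a median of 7 of the 8 genes detected, against 3 in the lowest VEH and 4 in the lowest LEM cells, and all 8 were detected in 40.9% of VEH and 35.2% of LEM members. *Atf3* had no count in 31.6% of members and *Fosb* in 26.6%. Each count is 1 molecule tagged at its 5′ end, so a count does not grow with transcript length. By counts *Jun* led 2062 members (51.2%), *Junb* 1003 (24.9%) and *Fos* 693 (17.2%), and 4.20% had a tie. *Jun* led 53.5% of VEH and 48.0% of LEM members, and *Junb* 22.2% and 28.8%. In members led by *Fos*, *Fos* stood at 6451 CPM in VEH and 6292 CPM in LEM, and in those led by *Jun* at 3436 and 3156 CPM.

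Over all ranked cells thinned to 2000 counts, the correlation between pairs of the 8 genes ranged from -0.01 to 0.30 in VEH (17069 cells, 28 pairs, median 0.15) and from 0.01 to 0.27 in LEM (23177 cells, median 0.14). It was highest for *Fos* with *Jun* in VEH (0.30) and for *Jun* with *Junb* in LEM (0.27), and at most 0.14 for *Atf3* with any other. Cells of a library share its preparation and its free RNA, and at this depth sampling noise lowers every such value, so the correlations are descriptions only.

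Within the members the level of the 8 genes was near equal between treatments, as the shared cut fixes. Their summed level was 19921 CPM in VEH and 19217 CPM in LEM members, a log2 ratio of -0.05 (-0.06 to -0.04), while over all ranked cells it was 10698 and 9294 CPM, a ratio of -0.20 (-0.21 to -0.20). *Fosb* had 749 CPM in VEH and 593 CPM in LEM members (-0.34, -0.39 to -0.29), against -0.53 in the other cells, and *Atf3* 513 and 424 CPM (-0.27, -0.33 to -0.22), against -0.23. *Junb* had 4336 and 4592 CPM (0.08, 0.06 to 0.10), against 0.02, and *Ier2* 989 and 1049 CPM (0.09, 0.05 to 0.12), against -0.01.

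Genes outside the rule were compared where at least 10% of the cells of either class had a count. Of 7605 genes, 85 (1.12%) were at least 2-fold higher in members than in the lowest cells in both libraries, and 47 (0.618%) were at least 2-fold lower in both. The median log2 ratio over all genes was 0.00, and 5851 genes had the same direction in both libraries. Against the cells between, none of 7746 genes was at least 2-fold higher in both libraries (0%) or lower (0%). Since the cells were chosen on expression, none of these values is a test. Of the 7605 genes, 6980 reached the 10% minimum in both classes, 93 in members alone and 532 in the lowest cells alone. A gene that passed through 1 class had its direction largely set by the filter, and of the 6980 genes 60 were 2-fold higher and 19 were 2-fold lower in both libraries. Of the same 6980 genes, 2829 were higher and 2545 were lower in both libraries at any size. These are the background for the counts of each list below.

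Other immediate early genes were the clearest group above the lowest cells. Of 46 listed, 30 were compared, all 30 were higher in members in both libraries, and 19 were at least 2-fold higher. The median log2 ratio was 1.46 in VEH and 1.19 in LEM, 1.31 for the mean of both libraries, and 0.47 against the cells between, where again all 30 were higher in both libraries. *Csrnp1*, *Egr2*, *Gem*, *Klf4* and *Mafk* passed the minimum in members alone, and over the other 25 genes the median was 1.33. The members and lists were chosen with earlier results of these data known, so the counts are no independent support. When the counts of every cell were split at random in 2 equal parts, with cells ranked on one and measured on the other, the median was 1.33 over 26 genes.

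*Klf2*, a transcription factor that restrains inflammatory genes, had the largest ratio among the genes compared outside the rule. It stood at 833 CPM in VEH members, 436 CPM in the cells between and 105 CPM in the lowest cells, and at 648, 255 and 72.0 CPM in LEM. The log2 ratio over the lowest cells was 2.99 (2.90 to 3.09) in VEH and 3.17 (3.08 to 3.26) in LEM. Its relative *Klf4* had 138, 81.5 and 24.4 CPM in VEH, and 112 CPM in the members and 58.2 CPM in the cells between of LEM, with ratios over the lowest cells of 2.5 and 2.56. Pooled over the sexes, both genes were lower in LEM, *Klf4* with a log2 ratio of LEM over VEH of -0.30 in members, but 0.00 in female and -0.55 in male members. *Klf2* had a log2 ratio of LEM over VEH of -0.36 (-0.41 to -0.32) in members and -0.78 (-0.80 to -0.76) in other cells, but -0.02 in female members and -0.49 in male members.

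The 15 genes with the largest ratios outside the rule also held *Socs3*, *Zfp36*, *Btg2*, *Ppp1r15a* and *Tsc22d3*. *Socs3*, an inhibitor of cytokine receptor signalling, had 485, 263 and 66.0 CPM in VEH and 504, 273 and 92.2 CPM in LEM, from members to the lowest cells, with log2 ratios over the lowest of 2.88 and 2.45. *Zfp36*, which binds AU-rich transcripts and speeds their decay, had 4493, 2905 and 905 CPM in VEH and 4417, 2873 and 1033 CPM in LEM, ratios of 2.31 and 2.10. *Btg2*, an antiproliferative cofactor of mRNA deadenylation, had ratios of 2.21 and 2.06. *Ppp1r15a*, which directs phosphatase to eIF2 alpha in the integrated stress response, stood at 272, 171 and 56.1 CPM in VEH and at 241, 134 and 49.8 CPM in LEM, with ratios of 2.28 in both. *Tsc22d3*, a glucocorticoid-induced regulator of inflammation, had ratios of 2.07 and 1.92, while the 9 glucocorticoid genes compared had a median of 0.39 over the lowest cells and 0.09 over the cells between, and *Fkbp5* had 0.20 and 0.26. The glucocorticoid median over the lowest cells was 0.11 when cells with a count of *Cst7*, *Lpl*, *Spp1* or *Itgax* were left out. *Socs3*, *Zfp36*, *Btg2*, *Ppp1r15a* and *Tsc22d3* were ordered members, cells between, lowest cells in both libraries.

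**Figure D4:**
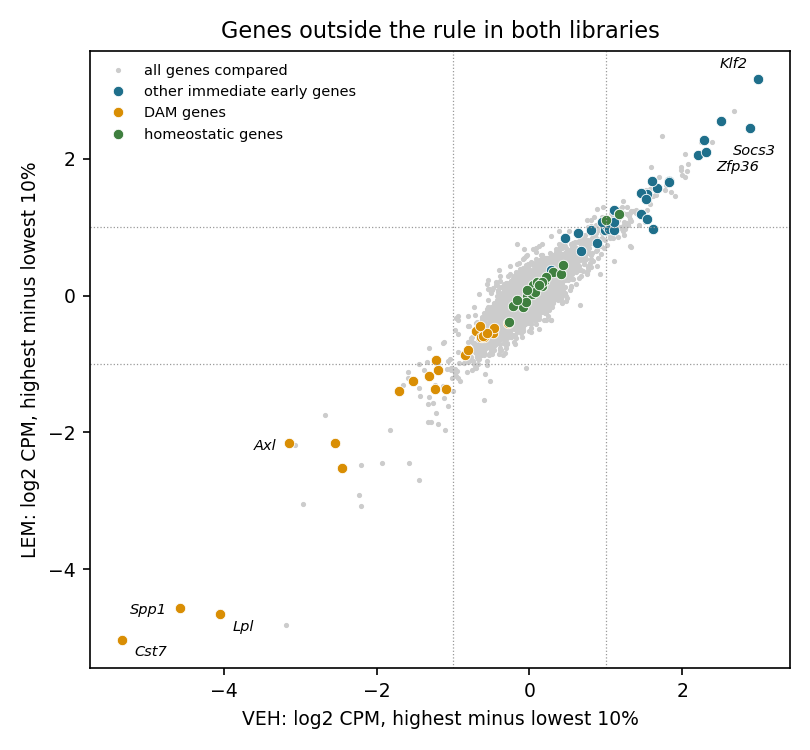
Log2 CPM of members minus that of the lowest 10%, in VEH (horizontal) and LEM (vertical), for all genes compared outside the rule (grey), other immediate early genes (blue), DAM genes (orange) and homeostatic genes (green); dotted lines mark a 2-fold difference. *Klf2* lies at the upper end with 2.99 and 3.17, *Cst7* at the lower end with -5.33 and -5.03, and most genes gather near 0.

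Further genes of the list had a range of ratios. *Jund*, another AP-1 subunit, had 2384 CPM in VEH members against 747 CPM in the lowest cells, and 2258 against 757 CPM in LEM, with log2 ratios of 1.67 and 1.58. *Ier5* had 1.82 and 1.68, *Klf6* 1.54 and 1.49, and *Dusp6*, a phosphatase specific for ERK, 1.10 and 1.25. *Nr4a1*, an early-response nuclear receptor, stood at 14.7 and 13.4 CPM in members and at 3.78 and 3.08 CPM in the lowest cells of VEH and LEM. *Egr2* had 27.2 CPM in VEH and 14.5 CPM in LEM members (log2 ratio -0.91, -1.22 to -0.61), against -0.32 (-0.42 to -0.22) in the other cells. The difference of these ratios was -0.70 in female and -0.53 in male cells and was not tested. *Junos*, a transcript outside the list and from the strand opposite *Jun*, had ratios of 2.39 and 2.24, and whether reads of *Jun* and *Junos* were told apart by strand is not given in the sources used here.

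Of the 15 genes with the largest ratios outside the rule, the others were *Zswim4* (1.74 in VEH and 2.33 in LEM) and the unnamed or little-described loci *Gm32296*, *D830025C05Rik*, *Gm26532*, *Gm29282*, *2810013P06Rik* and *Gm15444*, with mean ratios between 1.90 and 2.69. Of these loci all but *2810013P06Rik* reached the 10% minimum in members alone, as did *Junos*, so that the filter favoured their direction. In LEM, *Zswim4* stood at 257 CPM in members against 136 CPM in the cells between, and in VEH at 142 against 108 CPM.

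The promoters of 4 genes are shown for the motifs they share, *Fos* and *Dusp1* of the rule and *Btg2* and *Ppp1r15a* outside it, all high in the members. Each line gives the 250 bases before the RefSeq start, 5′ to 3′ on the gene's strand, from GRCm38.p6. Capitals mark TGACG, the core of the cyclic AMP response element (CRE), its full palindrome TGACGTCA, in which a TGACG on each strand overlap, and for *Fos* the TATA box TATAAA.
Fos: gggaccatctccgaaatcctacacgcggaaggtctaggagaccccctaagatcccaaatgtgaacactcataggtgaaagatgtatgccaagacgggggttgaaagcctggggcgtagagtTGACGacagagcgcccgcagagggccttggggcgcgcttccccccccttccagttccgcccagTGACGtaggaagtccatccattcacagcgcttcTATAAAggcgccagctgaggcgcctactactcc
Dusp1: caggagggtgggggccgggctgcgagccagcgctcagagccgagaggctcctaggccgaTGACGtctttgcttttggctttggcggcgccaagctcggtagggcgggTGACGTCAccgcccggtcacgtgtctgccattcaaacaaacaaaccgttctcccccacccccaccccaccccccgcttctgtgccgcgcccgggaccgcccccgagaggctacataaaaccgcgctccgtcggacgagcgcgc
Btg2: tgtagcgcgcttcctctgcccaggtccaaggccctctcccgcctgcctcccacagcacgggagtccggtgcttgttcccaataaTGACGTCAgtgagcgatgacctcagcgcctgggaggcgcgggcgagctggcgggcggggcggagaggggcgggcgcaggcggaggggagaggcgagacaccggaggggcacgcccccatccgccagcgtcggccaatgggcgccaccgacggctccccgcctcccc
Ppp1r15a: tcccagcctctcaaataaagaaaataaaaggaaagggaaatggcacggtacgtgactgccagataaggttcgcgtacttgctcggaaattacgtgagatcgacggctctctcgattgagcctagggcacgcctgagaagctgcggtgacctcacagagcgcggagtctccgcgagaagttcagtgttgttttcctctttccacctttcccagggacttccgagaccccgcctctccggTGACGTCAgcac
These stretches are chr12:85473640-85473889 (plus strand) for *Fos*, chr17:26508473-26508722 (minus) for *Dusp1*, chr1:134079156-134079405 (minus) for *Btg2* and chr7:45526269-45526518 (minus) for *Ppp1r15a*. The *Fos* window holds TGACG from 129 to 125 and from 66 to 62 bases before the start and TATAAA from 33 to 28 bases before it. The full CRE begins 143 bases before the start in *Dusp1*, 166 bases in *Btg2* and 12 bases in *Ppp1r15a*.

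The same windows were searched on both strands for 1 promoter a gene, over 27025 genes. TGACG was found in 17.9% of all genes, in 5 of the 6 rule genes with an entry, without *Egr1* and *Ier2* (*Fos*, *Fosb*, *Junb*, *Dusp1* and *Atf3*), in 11 of 24 other immediate early genes and in 5 of 21 DAM genes. TGACGTCA was found in 1.62% of all genes, in *Dusp1*, and in *Btg2* and *Ppp1r15a* of the 24. The early growth response motif GCGTGGGCG or GCGGGGGCG was found in 3.05% of all genes, in *Fosb* and in 5 of the 24, among them *Klf2*, *Klf4*, *Socs3* and *Zfp36*, and in none of 21 DAM genes but 3 of 18 homeostatic genes. The AP-1 motif TGACTCA or TGAGTCA was found in 4.43% of all genes, in none of the 6 rule genes and in 1 of the 24. The CArG box, the site of serum response factor, was found in 1.40% of all genes and in *Zfp36* of the 24. A match is a description, not a site or a cause.

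Genes reported to rise during dissociation formed a list that overlaps the early genes. Of 17 compared, 10 were at least 2-fold higher in members and 15 higher in both libraries, with a median log2 ratio of 1.2 over the lowest cells and 0.37 over the cells between. *Rgs1*, a regulator of G protein signalling, had 612 CPM in VEH members and 195 CPM in the lowest cells, and 539 and 195 CPM in LEM. Tissue was dissociated mechanically, on ice or in the cold, and cells were sorted before capture. *Rhob*, a small GTPase, had ratios of 1.17 and 1.19. *Ccl3* had only 0.10 and 0.11. How far dissociation and sorting entered these levels was not tested.

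Heat shock genes were split. Of 11 compared, 4 were higher and 4 lower in both libraries. The median over the lowest cells was 0.08 in VEH and -0.07 in LEM, and over the cells between 0.04 in both. The exception was *Dnajb1*, a partner of the chaperone HSP70, with 185 against 62.5 CPM in VEH and 155 against 57.7 CPM in LEM (1.56 and 1.43). Under the detection minimum, *Hspb1* had ratios of 2.34 and 1.05 and *Hspa1a* of 1.09 and 1.90, while *Hspa1b* had -0.32 and 0.21. *Hspe1* and *Hspd1*, mitochondrial chaperones, had ratios of -0.32 and -0.33 in VEH and -0.40 each in LEM. Of 8 genes compared in the integrated stress response list, 7 were higher in both libraries, with a median of 0.61 over the lowest cells and 0.20 over the cells between. *Atf4*, its main transcription factor, had 0.73 and 0.83. The others were *Ddit3*, *Ppp1r15a*, *Xbp1*, *Hspa5*, *Herpud1*, *Dnajb9* and *Sdf2l1*. *Ppp1r15a* also stands among the other immediate early genes and *Hspa5* in the heat shock list. *Asns*, *Trib3*, *Chac1*, *Sesn2*, *Atf5* and *Vegfa* fell under the detection minimum, so the median does not measure that pathway alone.

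The kinases and factors that switch immediate early genes on were nearly level. The median over 17 such genes was 0.06 over the lowest cells, 0.01 over the cells between and -0.03 without the cells that had a count of *Cst7*, *Lpl*, *Spp1* or *Itgax*, none was 2-fold higher, and *Mapk3*, an ERK kinase, had -0.11 in VEH and -0.16 in LEM. *Creb1*, the factor that binds the CRE, was highest, with 141 CPM in the members of both libraries against 92.2 and 88.5 CPM in the lowest cells (0.61, 0.50 to 0.73, and 0.67, 0.56 to 0.79).

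Targets of NF-kB were mostly higher in members, and cytokine and chemokine genes were mixed. Of 16 targets of NF-kB, 13 were higher and 3 lower in both libraries, with a median of 0.51 over the lowest cells. Over the cells between, 15 were higher and 1 lower in both, with a median of 0.29. Genes of the inhibitor of NF-kB family and *Tnfaip3*, which ends NF-kB signalling, ranged widely, with *Nfkbia* at 468 against 170.4 CPM in VEH and 447 against 157 CPM in LEM (1.46 and 1.5), *Nfkbiz* with ratios of 1.82 and 1.66, *Tnfaip3* with 1.46 and 1.2, *Nfkbid* with 0.88 and 1.27 and *Nfkbie* with 0.36 and 0.54. *Nfkbia*, *Nfkbiz* and *Tnfaip3* also stand in the list of other immediate early genes. Of 13 cytokine and chemokine genes, 9 were higher and 4 lower than in the lowest cells in both libraries. Their median was 0.11 over the lowest cells and 0.20 over the cells between. It was 0.70 over 12 genes when cells with a count of *Cst7*, *Lpl*, *Spp1* or *Itgax* were left out before ranking. The monocyte chemokine *Ccl2*, which passed the 10% minimum in members and not in the lowest cells, so that the filter favoured its direction, was the only one 2-fold higher in both, at 101 against 39.4 CPM in VEH and 84.0 against 35.6 CPM in LEM (1.36, 1.20 to 1.53, and 1.24, 1.08 to 1.40). *Ccl2* was detected in 9.03 and 10.1% of members thinned to 2000 counts, in 7.24 and 7.28% of the cells between and in 3.75 and 3.47% of the lowest cells, against 15.1, 14.6, 14.6, 14.5, 8.42 and 7.71% without thinning. *Il1a* had 1.00 and 0.92, *Tnf* 0.38 and 0.28, and *Ccl4* 0.06 and 0.11, while *Ccl6* and *Csf1* were lower, at -1.23 and -1.37 and at -1.09 and -1.37.

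DAM genes were lower in members than in the lowest cells. Of 25 compared, *Axl*, *Csf1*, *Cst7*, *Itgax*, *Lpl* and *Spp1* reached the 10% minimum in the lowest cells alone, so that the filter largely set their direction. The other 19, detected in both classes, were lower in both libraries, 6 of them at least 2-fold, with a median of -0.62. With the 6 included, 12 were at least 2-fold lower and the median was -1.08. Over the cells between, 19 of the 21 genes that passed there were lower in both, with a median of -0.22. *Cst7*, a cysteine protease inhibitor and DAM marker, had 14.4 CPM in VEH members, 74.6 CPM in the cells between and 583 CPM in the lowest cells, and 14.1, 51.8 and 460.1 CPM in LEM. The log2 ratio over the lowest cells was -5.33 (-5.55 to -5.13) in VEH and -5.03 (-5.30 to -4.77) in LEM. *Lpl*, lipoprotein lipase, had 6.77 against 112 CPM and 4.30 against 109 CPM (-4.05 and -4.66). *Spp1*, osteopontin, had 2.11 CPM in VEH and 3.82 CPM in LEM members, with ratios of -4.58 and -4.56. *Apoe*, the lipid carrier, had 863, 1396 and 2500.1 CPM in VEH and 1425, 2049 and 3379.8 CPM in LEM. The order of the classes was thus turned round from that of the early genes in both libraries. *Axl*, *Itgax* and *Ank* of the list had mean ratios of -2.66, -2.36 and -2.49. Outside the lists, 6 further genes were among the 15 with the smallest ratios, all 6 of which reached the 10% minimum in the lowest cells alone, so that the filter largely set their direction. *Baiap2l2* had 8.42 against 76.2 CPM in VEH and 1.91 against 53.9 CPM in LEM, *Cox6a2*, a subunit of cytochrome c oxidase, had ratios of -2.96 and -3.04, and *Psat1*, an enzyme of serine synthesis, had -2.21 and -3.07. *Etl4*, *Il4i1* and *Gm42047* had mean ratios of -2.57, -2.34 and -2.07.

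Cells with a count of *Cst7*, *Lpl*, *Spp1* or *Itgax* were a minority in each class. Such a count was present in 11.1% of VEH and 13.3% of LEM members, in 18.4 and 21.9% of the cells between and in 31.8 and 33.6% of the lowest cells. When all cells with such a count were left out before ranking, a choice made after the data were seen, 0 genes were 2-fold lower in members in both libraries and the DAM median was -0.15 over 19 genes. This removal sets the 4 genes themselves to 0 and left 19 of the 25 genes to compare, so the lower count is in part fixed by construction. In the same setting 71 genes were 2-fold higher and the median of the other immediate early genes was 1.34. The median over all 7364 genes compared there was -0.07, the background for every median given without these cells. In cells thinned to 2000 counts, *Cst7* was detected in 1.6% of VEH and 2.43% of LEM members and in 15.3 and 13.6% of the lowest cells, against 4.12, 5.29, 21.4 and 20.0% without thinning. The part of free RNA in these shares was not tested.

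**Figure D5:**
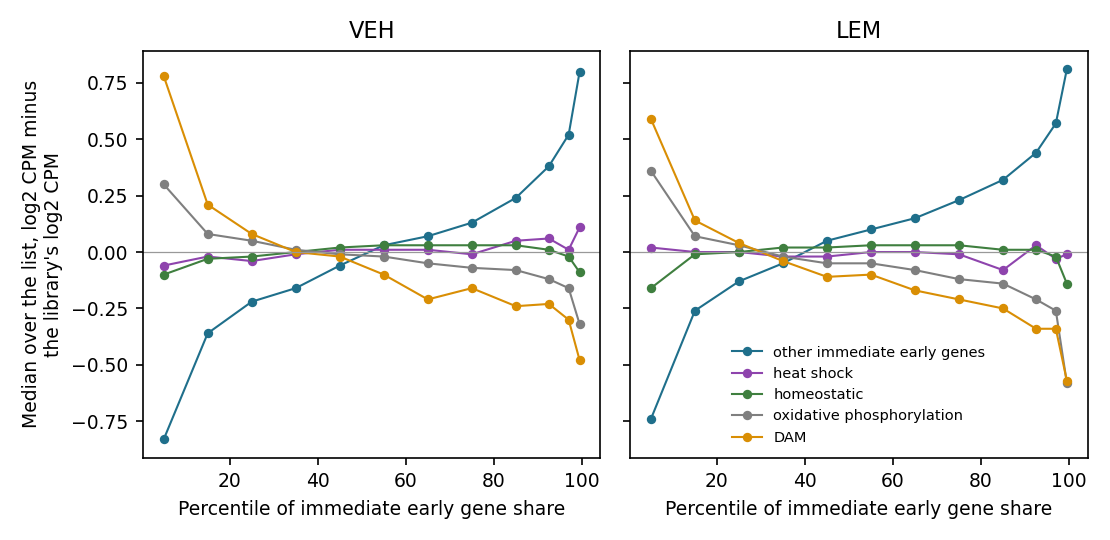
Median over each list's genes of log2 CPM in a bin of cells minus that of the whole library, along the percentile of the immediate early gene share, for VEH (left) and LEM (right); bins span 10 percentiles up to 90 and then end at 95, 99 and 100. Other immediate early genes run from -0.83 to 0.80 in VEH and from -0.74 to 0.81 in LEM, DAM genes and oxidative phosphorylation genes run the other way, and homeostatic and heat shock genes stay within 0.16 of 0.

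Along the whole ranking both groups were graded. From the lowest 10% to the highest 1% of cells the median of the other immediate early genes went from -0.83 to 0.80 in VEH and from -0.74 to 0.81 in LEM, relative to the library's level, without a step at the cut for members. The DAM median went from 0.78 to -0.48 in VEH and from 0.59 to -0.57 in LEM, and the bin next to the lowest 10% already stood at 0.21 and 0.14. *Klf2* went from 105 to 1194 CPM in VEH and from 72.0 to 832 CPM in LEM.

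Homeostatic genes were nearly level. Over 26 genes the median was 0.13 over the lowest cells and -0.02 over the cells between. *P2ry12*, the purinergic receptor that guides microglial processes, had 4257, 4369.7 and 3728 CPM in VEH and 3997, 4209.5 and 3456 CPM in LEM, from members to the lowest cells. *Tmem119* had ratios of 0.31 and 0.35 and *Cx3cr1* of 0.21 and 0.28 over the lowest cells.

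Other groups were lower in members. The 4 MHC class II genes compared formed pairs, *Cd74* and *H2-Ab1* with mean ratios of -2.63 and -2.21 and *H2-DMa* and *H2-DMb1* with -0.44 and -0.25. *Cd74*, the invariant chain, had 92.9 against 779 CPM in VEH and 149 against 682 CPM in LEM (-3.07 and -2.19). Against the cells between *Cd74* had -1.30 in VEH and -0.41 in LEM, and *H2-Ab1* had -1.07 and -0.01. *H2-Ab1* reached the 10% minimum in the lowest cells alone, so that the filter favoured its direction. The median was -1.32 with it and -0.44 over the other 3 genes, and -0.09 over the cells between for the 3 genes that passed there. Without the cells that had a count of *Cst7*, *Lpl*, *Spp1* or *Itgax*, the median over the lowest cells was -0.09 over 3 genes. All 43 nuclear genes of oxidative phosphorylation were lower in both libraries, by a median of -0.53 over the lowest cells and -0.18 over the cells between, where 42 of 43 were lower in both. *Ndufa1*, a complex I subunit, had 62.4 against 135 CPM in VEH and 55.5 against 142 CPM in LEM. The 13 genes of the mitochondrial genome had a median of 0.08, or 0.31 without the cells that had a count of the 4 DAM genes, and the share of mitochondrial counts per cell was 0.645 and 0.666% in members, 0.633 and 0.663% in the cells between and 0.472 and 0.510% in the lowest cells, so that the lowest cells stood apart. The 4 nuclear-retained RNAs compared were split, with a median of 0.17 over the lowest cells and 0.03 over the cells between. *Malat1* had 9966 against 6536 CPM and 10042 against 6379 CPM (0.61 and 0.65) and *Neat1* had ratios of 1.27 and 1.06, while *Gm42418* had -0.35 and -0.31 and *AY036118* had -0.29 and -0.32. With cells ranked within 10 bins of total counts the median of the 43 oxidative phosphorylation genes was -0.47, and without the cells that had a count of the 4 DAM genes it was -0.33.

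Interferon response genes had a median of -0.27 over 14 compared, with 8 lower and none higher in both libraries. The median was -0.10 over the cells between, -0.15 over 12 genes without the cells that had a count of the 4 DAM genes, and -0.17 over the 12 genes that reached the 10% minimum in both classes. *Ifi27l2a* had 42.6 against 134 CPM in VEH and 76.7 against 189 CPM in LEM. Of 21 proliferation genes only 5 passed the detection minimum, *Stmn1* and *Tyms* in the lowest cells alone, so that the filter favoured their direction. The median over these 5 was -0.66. It was -0.22 over the cells between and -0.40 without the cells that had a count of the 4 DAM genes, over 3 genes each. *Stmn1*, a microtubule regulator of dividing cells, had 15.3 against 58.3 CPM and 10.0 against 54.7 CPM (-1.93 and -2.45), and *Mki67* was detected in 0.294 and 0.182% of members against 3.02 and 3.19% of the lowest cells, and after thinning to 2000 counts in 0.0840 and 0.122% against 2.24 and 2.12%. Clock genes had a median of 0.28 over 6 compared, but 0.16 over the cells between, 0.07 without the cells that had a count of the 4 DAM genes and 0.09 over 3 genes with counts split in 2 parts. *Per1*, itself an immediate early gene, had 1.52 and 1.41.

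Members and other cells come from the same 2 libraries, so their treatment differences are given side by side. Over 7073 genes the median log2 ratio of LEM over VEH was 0.02 in members and 0.01 in other cells. *Apoe* was higher in LEM members, at 1425 against 863 CPM (0.72, 0.69 to 0.76), and higher by 0.54 (0.54 to 0.55) in the other cells. The other immediate early genes had medians of -0.03 and -0.05. The largest excess in members over other cells with 1 sign in both sexes was that of *Cd74*, with 0.68 (0.57 to 0.80) in members and -0.18 (-0.20 to -0.15) in other cells. *Cd74* was detected in 14.7% of VEH and 15.1% of LEM members, or 7.61 and 7.78% after thinning, so the levels differed more than the shares of cells. Of the other MHC class II genes, *H2-Aa* had 168 counts in 0.966% of VEH members and 374 counts in 0.973% of LEM members. Whether the excess of *Cd74* rests on such a small share of members was not tested. The ratio of *Cd74* was 1.54 in female and 0.86 in male members, and the pooled value lies below both. Female members numbered 785 in VEH and 568 in LEM, and male members 1218 and 805. The remaining members were counted in neither sex and entered the pooled value alone. *Kcnip3*, *Arhgap15*, *Ankrd27* and *Zswim4* followed, with differences of 0.68, 0.67, 0.58 and 0.55. On the lower side were *Cfap77*, *Adcy8*, *Egr2*, *Tubb2b* and *Gm3716*, with -0.70, -0.63, -0.60, -0.55 and -0.53. *Adcy8* had ratios of LEM over VEH of -0.23 in female and 3.35 in male members, and *Cfap77* of -3.78 and -1.92. Only 5 pooled mice stand behind each library, and single mice cannot be told apart from treatment.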

How the data were processed

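The authors deposited 1 table of whole-number counts of tagged molecules for 32285 genes in 42766 cells, made with Cell Ranger 8.0.0 on mm10 per the submitters' processing notes from 10x 5′ libraries. The study's methods describe removal of free RNA with SoupX and filters on cells, and whether the deposited counts carry that removal could not be told. Cells were assigned to VEH and LEM by their names, which are numbers and not barcodes, so sharing between libraries could not be counted. *Clec7a* was not analysed here, and some genes of the lists are not reported here. No doublet caller was run.

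Cells with at least 2000 counts were ranked on the rule's share. Counts were summed per class and library and given as counts per 1000000, with exact 95% intervals for Poisson counts, binomial shares and ratios of counts, and a log interval for ratios of shares. Genes were compared where at least 10% of cells of either class had a count, and 2-fold in both libraries was the threshold. Thinning drew 2000 counts per cell. With 1 library per treatment and cells chosen on expression, no test was run, and intervals cover counting error only. Cell sex was read from *Xist* and Y-linked counts.

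Named genes were the 8 rule genes, members of the gene lists, the 15 largest and 15 smallest mean ratios outside the rule, and the 5 largest and 5 smallest differences in LEM over VEH with the same sign in both sexes. Members and lists were chosen with earlier results of these data known. Lists overlap. Alternatives changed depth, cut, weights, cells, scaling, detection minimum and fold. Promoters were from RefSeq (GRCm38.p6), loci from GENCODE M21 on GRCm38, which is mm10. Python 3.11.15, numpy 2.4.6, scipy 1.17.1 and matplotlib 3.10.9 were used, and the scripts were tested on simulated data.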

Additional observations from a re-analysis of the deposited data

Results flagged for a closer look

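Among the 8 rule genes and the 30 genes named for their ratio over the lowest cells, 4 had intervals of the log2 ratio of LEM over VEH in members on opposite sides of 0 in female and male cells, which came from different mice. *Ier2* had -0.07 in female and 0.22 in male members. *Zfp36* had 0.04 in female and -0.07 in male members. *Cst7* had 0.72 in female and -0.60 in male members, and *Spp1* had -2.82 and 1.81. The difference between the sexes was not tested, since each value comes from 1 pooled library. *Spp1* rests on few counts, with a level of 2.11 CPM in VEH and 3.82 CPM in LEM members. Other genes also had opposite signs, among them *Ifi27l2a* with 2.83 in female and -0.68 in male members and *Adcy8* with -0.23 and 3.35. The medians of whole lists did so too, with 0.81 and -0.32 for 12 interferon response genes and 1.54 and -0.65 for 3 MHC class II genes.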

How the results depend on the processing

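No paired analysis was possible because each treatment had 1 library. No library was left out, for the same reason. The reference of cells between, the detection minimum over all ranked cells and the removal of cells with a count of *Cst7*, *Lpl*, *Spp1* or *Itgax* (DAM genes below) were chosen after seeing the data. The causes of the shifts were not tested, except where stated. The log2 share of members in LEM over VEH, -0.97, became -0.88 after thinning, -1.07 within depth bins, -1.18 for the highest 5%, -0.71 for the highest 20% and -1.13 with the 8 genes weighted equally. It was 0.00 with each library ranked alone, which is so by construction. In the other 7 settings it moved by less than its interval.

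The count of genes 2-fold higher, 85, became 151 at 5%, 31 at 20%, 204 with detection in at least 1% of cells, 196 at 1.5-fold and 0 against the cells between. The count of genes 2-fold lower, 47, became 21 at 20%, 21 with equal weights, 30 in male cells, 30 with counts split in 2 parts, 410 with detection in at least 1% of cells, 28 with detection in at least 10% of all ranked cells, 132 at 1.5-fold, 0 against the cells between and 0 without cells with a count of the DAM genes, which is in part so by construction.

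The median of other immediate early genes, 1.31, became 1.90 at 5%, 0.90 at 20% and 0.47 against the cells between. That of heat shock genes, 0.07, became 0.20 at 5%. The homeostatic median, 0.13, became 0.18 at 5%, 0.09 at 20% and 0.06 in male cells, and turned to -0.04 with equal weights, -0.04 without cells with DAM genes and -0.02 against the cells between. Without cells with DAM genes the median over all genes compared was itself -0.07. The DAM median, -1.08, became -1.21 at 5%, -0.71 at 20%, -0.70 with equal weights, -0.85 in male cells, -0.83 with counts split, -0.80 with detection in at least 10% of all ranked cells, -0.15 without cells with DAM genes and -0.22 against the cells between. All 506 values of the 30 genes named by ratio kept their direction. These genes were chosen for large ratios of the same sign in these same cells, and several passed the detection minimum in 1 class alone. Their direction was thus largely set in advance and is no support.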
